A study of Mus musculus with 7 samples.

Results

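The core circadian clock genes were examined by RNA-seq of mouse hippocampus, a brain region needed for memory of places and events. The 10 genes are Per1, Per2, Per3, Cry1, Cry2, Bmal1, Clock, Nr1d1, Nr1d2 and Dbp, taken by symbol. They are 10 of the 21965 genes in the deposited count table, which lists Bmal1 under that newer symbol in place of Arntl. All 10 passed the low-count filter, as did 14417 genes in all. The NIHHL group is 4 libraries from the noise-induced hidden hearing loss model, set up with 2 h of noise at 110 dB, in which hearing is injured without the threshold loss of ordinary deafness. The Control group is 3 libraries from blank control mice. Polyadenylated RNA of the hippocampus was sequenced in both groups, 1 month after induction. The sources used here give no strain, sex, age or clock time of noise or dissection. They do not tell whether each library came from 1 animal, and the p-values therefore reflect only how these libraries spread, which may be technical. In whole tissue, fewer cells of a type and less RNA per cell cannot be told apart.

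The mammalian clock is a transcriptional feedback loop found in nearly every cell. CLOCK and BMAL1 bind DNA as a pair at E-box sites and switch on the Per and Cry genes, whose proteins return to the nucleus and block that pair. The same pair drives Nr1d1 and Nr1d2, which encode the repressors REV-ERB alpha and REV-ERB beta, and these repress Bmal1 through RORE sites. Bmal1 RNA therefore peaks in antiphase to its direct targets, of which Dbp, a D-box activator, has one of the strongest rhythms. The hippocampus has such a clock, slaved to the suprachiasmatic nucleus of the hypothalamus, and hippocampal memory varies with time of day. Per1 is also an acute gene: cAMP signalling through CREB and glucocorticoids both induce it.

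The sites that tie the loop together were looked for in RefSeq promoter windows of GRCm38.p6, from 250 bases before to 50 bases after a gene's start. The letters searched on both strands were CACGTG for the E-box, CACGTT for its variant, TTATGNAA for the D-box, ANTAGGTCA or ANTGGGTCA for the RORE and TGACGTCA for the CREB site. Of the 10 genes, 9 matched 13 windows by symbol, and Per2 did not match. The E-box was in 2 of these 13 windows (7.15% of all 32851 windows) and its variant in 3 (4.68%). The D-box was in 2 (3.38%), the RORE in 1 (1.45%) and the CREB site in 0 (1.79%). For each motif the number of genes, of 9, was the same as that of windows. No match overlapped another. The windows below belong to Per1 and Per3, whose values stood farthest from those of Control in opposite directions, and to Bmal1 and Nr1d1, which varied together. Per1 and Bmal1 each have another window, with 0 matches, that is not shown. Each reads 5′ to 3′ on the gene's strand with the matches in capitals, and a match is a string of letters, not a measured site.

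Per1, chr11:69098699-69098998, plus strand, with an E-box 166 bases and a D-box 24 bases before the start:

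Per1: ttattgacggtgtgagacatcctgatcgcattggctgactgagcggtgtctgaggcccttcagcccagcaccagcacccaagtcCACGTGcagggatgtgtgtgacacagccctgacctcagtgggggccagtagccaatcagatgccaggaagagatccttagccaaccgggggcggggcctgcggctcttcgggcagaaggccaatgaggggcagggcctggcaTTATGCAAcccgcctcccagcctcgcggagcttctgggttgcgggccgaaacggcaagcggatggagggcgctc

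Per3, chr4:151044616-151044915, minus strand, with 2 D-boxes:

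Per3: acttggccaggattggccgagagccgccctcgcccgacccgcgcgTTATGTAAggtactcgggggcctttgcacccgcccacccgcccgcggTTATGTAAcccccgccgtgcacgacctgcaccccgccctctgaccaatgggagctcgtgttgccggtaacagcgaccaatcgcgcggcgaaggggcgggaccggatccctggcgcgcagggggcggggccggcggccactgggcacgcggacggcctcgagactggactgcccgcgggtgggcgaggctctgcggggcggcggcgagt

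Bmal1, chr7:113207261-113207560, plus strand, with a RORE 28 bases after the start:

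Bmal1: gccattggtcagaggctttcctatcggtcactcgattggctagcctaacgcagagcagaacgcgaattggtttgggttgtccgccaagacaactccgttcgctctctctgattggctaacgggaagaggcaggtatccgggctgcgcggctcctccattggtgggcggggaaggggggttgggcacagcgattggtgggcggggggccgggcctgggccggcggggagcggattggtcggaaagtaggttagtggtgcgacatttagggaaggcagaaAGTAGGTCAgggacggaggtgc

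Nr1d1, chr11:98775328-98775627, minus strand, with an E-box variant, read from the opposite strand, 28 bases before the start:

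Nr1d1: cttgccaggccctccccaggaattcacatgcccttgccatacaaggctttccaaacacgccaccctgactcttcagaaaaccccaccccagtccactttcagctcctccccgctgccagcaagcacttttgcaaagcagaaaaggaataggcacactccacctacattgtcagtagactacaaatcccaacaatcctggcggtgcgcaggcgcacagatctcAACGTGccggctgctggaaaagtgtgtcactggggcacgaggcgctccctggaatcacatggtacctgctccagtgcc

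Totals were 16982198 to 21585789 counts in NIHHL libraries and 14871367 to 24515138 in Control libraries. Of the markers of hippocampal neurons, 8 of 8 passed the filter, and their summed level was 961 to 1063 CPM (counts scaled to library size) in NIHHL and 961 to 1065 CPM in Control. Avp, Nms, Prok2 and Six6, markers of the suprachiasmatic nucleus, had at most 7 counts in any library. Vip, Grp and Six3 passed, and Vip is also made by hippocampal interneurons. The 7 markers together summed to 27.3 to 41.7 CPM in NIHHL and 36.3 to 46.3 CPM in Control. The 6 choroid plexus markers summed to 556 to 8383 CPM in NIHHL and 96.3 to 6922 CPM in Control, and the 5 ependymal markers to 48.8 to 63.4 and 30.3 to 43.4 CPM. Thalamic markers summed to 43.4 to 53.9 CPM in NIHHL and 36.4 to 53.4 CPM in Control, meningeal ones to 118 to 330 and 102 to 215 CPM, and striatal ones to 72.0 to 119 and 58.9 to 110 CPM. No marker was at 0 in all 7 libraries. A trend of level with transcript length also differed between libraries, with Spearman correlations across genes from -0.58 in Control replicate 2 to 0.52 in NIHHL replicate 4. The part of ependymal cells in the clock gene values was not tested.

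The comparison asked whether clock gene RNA differed in the hippocampus 1 month after noise. Levels of all 10 genes lay close together in the 2 groups, and the NIHHL and Control libraries overlapped for every one of them. Per1, the acutely inducible Period gene, averaged 57.4 ± 4.63 CPM in NIHHL and 65.2 ± 5.26 CPM in Control. Per3, a Period paralog, averaged 36.0 ± 1.57 CPM in NIHHL and 31.8 ± 5.49 CPM in Control (SD, n = 4 and 3). These were the lowest and highest log2 fold changes of the 10, at -0.19 and 0.18.

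Of the 10 clock genes, the quasi-likelihood test of edgeR called 0 (adjusted p under 0.05), as it did 0.00% of the 14417 genes tested. At an unadjusted p under 0.05 there was 1 of 10, Per1, against 3.63% of all genes. Leaving out Control replicate 2 or 3 or NIHHL replicate 1, 2 or 3 gave 0 of 10, and leaving out Control replicate 1 gave 2, Per1 and Per3. The count over all genes moved too. It was 808 of 14660 without Control replicate 1. In the fits with 0 clock genes it ran from 391 of 14321 without NIHHL replicate 1 to 670 of 14557 without Control replicate 2. DESeq2 called 0 of 10 (0.0220% of its 18177 genes), and 0 of 10 had an unadjusted p under 0.05 (2.46%). Both signs were equally common, since 5 genes were higher in NIHHL and 5 lower, beside 49.9% and 50.1% of all genes. Their median log2 fold change was 0.03, and that of all genes -0.00045. The median size of the log2 fold change regardless of sign was 0.08 for both. Groups that did not overlap were found for 0 of 10 clock genes and for 5.20% of all genes, 2.37% with NIHHL lower and 2.84% with NIHHL higher.

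The 95% intervals of the fold change differed in width between the genes. The lowest bound was 0.774-fold, for Per1, and the highest 1.34-fold, for Per3, while that of Cry2 ran from 0.874-fold to 1.07-fold. Each clock gene had between 266 and 2746 deposited counts in a library.

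**Figure D1:**
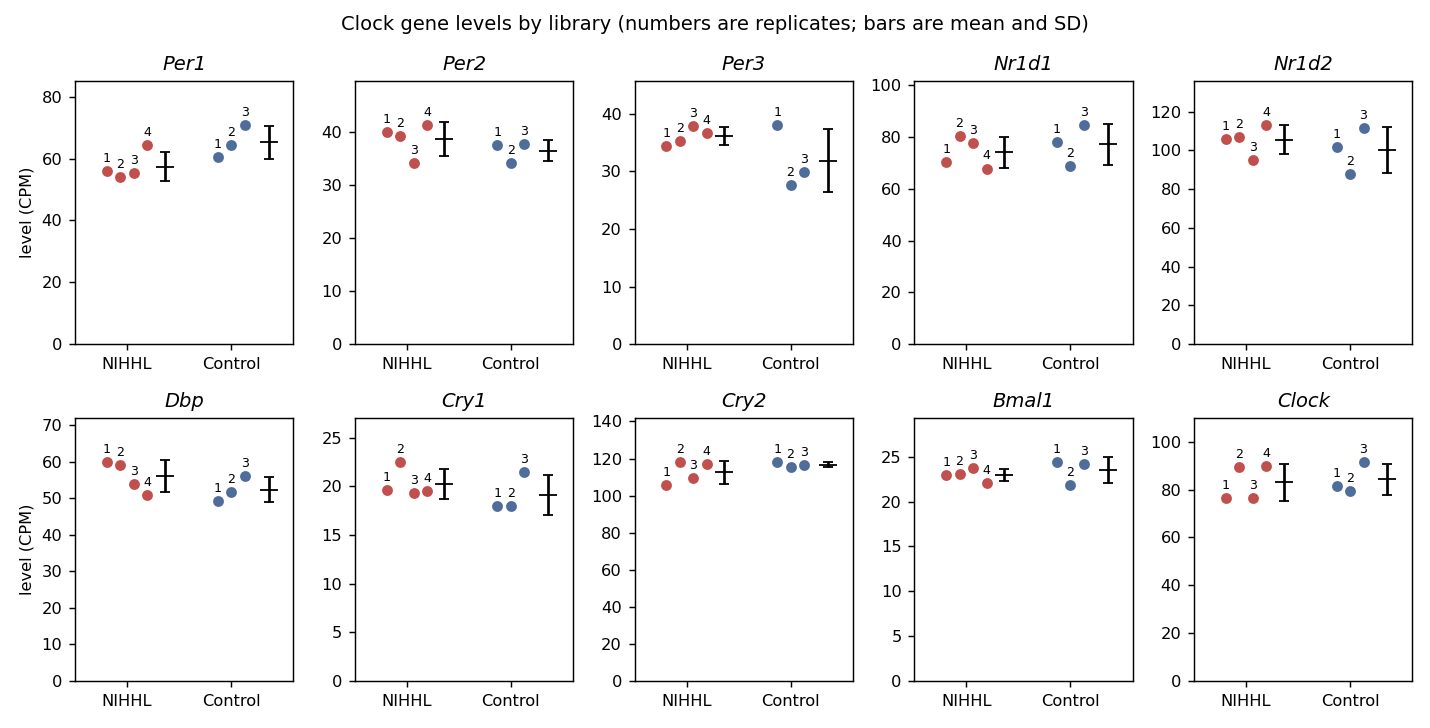
Level of each of the 10 clock genes in CPM, from 0, in the 4 NIHHL and 3 Control libraries; points carry the replicate number, and bars give the mean and SD of each group. The groups overlap in every panel, with Per1 averaging 57.4 CPM in NIHHL and 65.2 CPM in Control.

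Per1 stood at 56.1, 54.0, 55.4 and 64.2 CPM in NIHHL replicates 1 to 4 and at 60.5, 64.3 and 70.9 CPM in Control replicates 1 to 3. NIHHL replicates 1 to 3 lay below every Control library, and replicate 4 lay within the Control range. The log2 fold change was -0.19 (SE 0.08, edgeR's adjusted p = 0.996), and it was -0.12 without Control replicate 3, the library with the highest level.

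Per2, the Period protein whose loss shortens and then abolishes rhythms in mice, stood at 40.1, 39.3, 34.2 and 41.4 CPM in NIHHL and at 37.6, 34.2 and 37.9 CPM in Control. NIHHL replicate 3 and Control replicate 2 shared the lowest level. Per3, which is dispensable for the loop in mice, stood at 34.3, 35.2, 37.9 and 36.7 CPM in NIHHL and at 38.0, 27.6 and 29.8 CPM in Control. Here the NIHHL libraries were tight and the Control libraries wide, because Control replicate 1 was the highest of all 7 and the other two the lowest. The log2 fold change of Per3, 0.18 (SE 0.11, edgeR's adjusted p = 0.996), was 0.33 without Control replicate 1 and 0.09 without Control replicate 2. That of Per2 was 0.09 (SE 0.09). The 3 Period genes thus had fold changes of both signs.

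Nr1d1 stood at 70.4, 80.3, 77.9 and 67.9 CPM in NIHHL and at 78.1, 68.9 and 84.7 CPM in Control. Its paralog Nr1d2 stood at 106, 107, 95.2 and 113 CPM in NIHHL and at 102, 87.8 and 111 CPM in Control. Both groups held high and low libraries of each REV-ERB gene. The log2 fold changes were -0.06 (SE 0.09) for Nr1d1 and 0.07 (SE 0.09) for Nr1d2, and each took the opposite sign when 1 Control library was left out, at 0.013 for Nr1d1 without replicate 3 and -0.013 for Nr1d2 without replicate 2. Nr1d1 (chromosome 11, 98767932 to 98775333 in the GRCm38 annotation) shares 263 of its 3077 exon bases with Thra on the opposite strand. Thra, a thyroid hormone receptor, averaged 705 ± 40.02 CPM in NIHHL and 754 ± 73.9 CPM in Control. The deposited counts of Nr1d1 carried decimals, and reads in the shared part cannot be assigned without strand.

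Dbp stood at 60.0, 59.2, 54.0 and 50.9 CPM in NIHHL and at 49.2, 51.8 and 56.1 CPM in Control. NIHHL replicates 1 and 2 lay above all Control libraries, and replicates 3 and 4 lay among them. Its log2 fold change was 0.10 (SE 0.08, 95% interval -0.08 to 0.28). Dbp (chromosome 7, 45705088 to 45710203) shares 539 of its 2993 exon bases with Sphk2 on the opposite strand, and its counts also carried decimals. Sphk2, a sphingosine kinase, averaged 20.1 ± 1.48 CPM in NIHHL and 19.5 ± 1.41 CPM in Control.

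Cry1, the stronger repressor of the 2 cryptochromes, stood at 19.7, 22.5, 19.3 and 19.5 CPM in NIHHL and at 17.9, 18.0 and 21.5 CPM in Control. NIHHL replicate 2 and Control replicate 3 stood above the other libraries of their groups. Cry2 stood at 106, 118, 109 and 117 CPM in NIHHL and at 118, 115 and 116 CPM in Control, where the 3 libraries were almost level. The log2 fold changes were 0.08 (SE 0.10) for Cry1 and -0.05 (SE 0.07) for Cry2. Cry2 shares 295 exon bases with the noncoding gene D930015M05Rik on the opposite strand, which has no row in the count table.

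Bmal1 stood at 23.0, 23.1, 23.8 and 22.1 CPM in NIHHL and at 24.5, 21.9 and 24.2 CPM in Control. The 4 NIHHL values lay inside the Control range, and the highest of the 7 libraries was 1.12 times the lowest. Clock, its partner, stood at 76.6, 89.5, 76.4 and 89.9 CPM in NIHHL and at 81.6, 79.4 and 91.7 CPM in Control. NIHHL replicates 2 and 4 and Control replicate 3 were high, and the other libraries were low. The log2 fold changes were -0.03 (SE 0.08) for Bmal1 and -0.02 (SE 0.09) for Clock. By edgeR's quasi-likelihood test the adjusted p of each of the 10 genes was 0.996, and by DESeq2 it was 1.00.

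**Figure D2:**
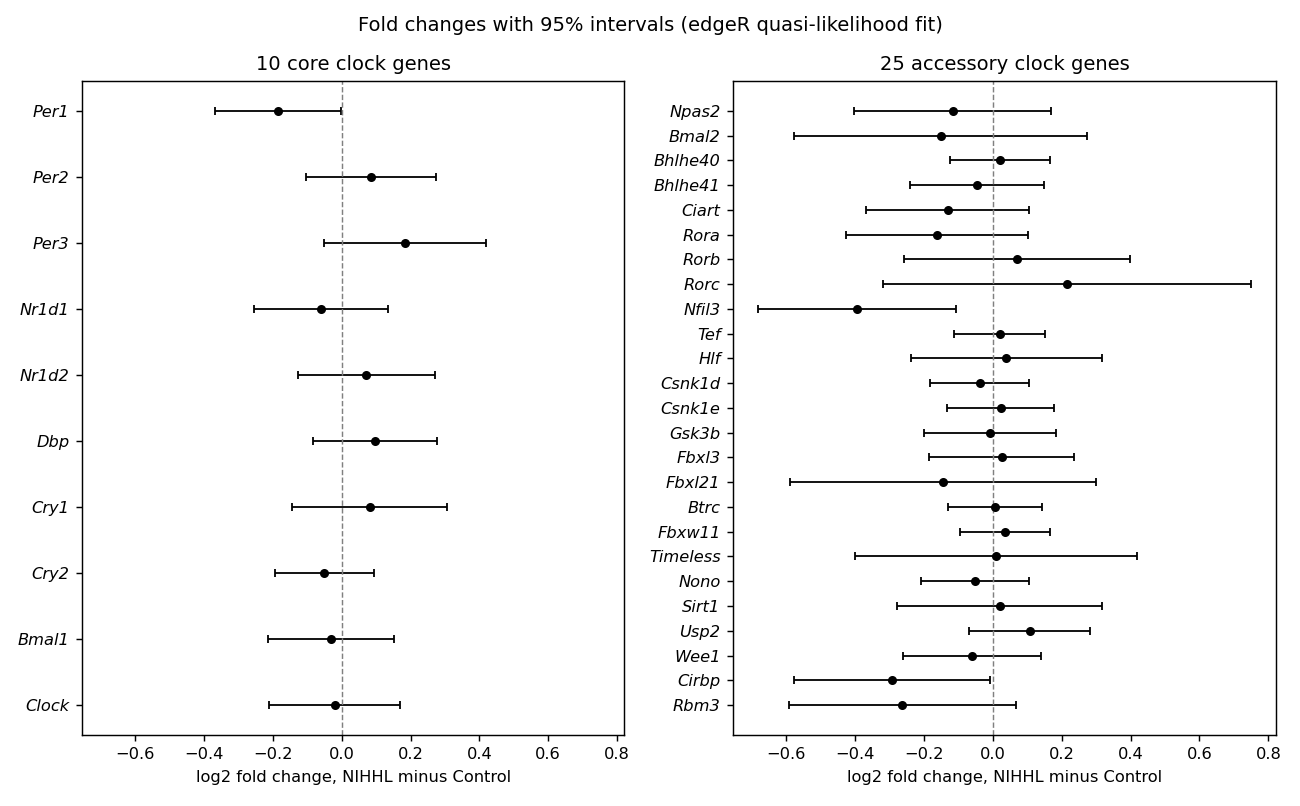
Log2 fold change, NIHHL minus Control, with its 95% interval from the edgeR fit for the 10 core genes (left) and 25 accessory genes (right). Among the core genes the interval of Per1, at -0.19, ends just below 0 and the other 9 include 0.

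Levels were compared between genes only per kilobase of exon, taken as the union of all annotated exons. This union can be longer than the transcripts present, so the order of the genes depends on that choice of length. Nr1d1 had the highest level, 24.1 ± 1.93 CPM per kilobase in NIHHL and 25.1 ± 2.58 in Control, and stood above Nr1d2 in every library. The part of reads from the exon bases shared with the far more abundant Thra in this rank was not tested. Nr1d2, Dbp and Cry2 followed at means of 19.1, 18.2 and 18.1 CPM per kilobase over the 7 libraries, and their ranges overlapped. Per1 came next at 10.8 CPM per kilobase, apart from its neighbours in the order. Per2, Clock and Cry1 lay together at 6.46, 6.09 and 5.92 CPM per kilobase with overlapping ranges. Per3 and Bmal1 were lowest at 3.56 and 3.09 CPM per kilobase, and their ranges overlapped too. Within genes the libraries spanned little: the highest library was from 1.12 times (Bmal1) to 1.38 times (Per3) the lowest, with a median of 1.23 for the 10 genes and 1.34 for all genes tested. The median SD of log2 CPM within groups was 0.12 for the clock genes and 0.15 for all genes tested.

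Genes driven by CLOCK and BMAL1 were then set against Bmal1 and Clock within each library. Clock was included as the partner of Bmal1, not as a gene seen to run opposite to the driven ones. Its r across libraries was 0.01 with Bmal1 and ran from -0.11 with Per3 to 0.69 with Nr1d2. A phase index was taken as the mean log2 CPM of Per1, Per2, Per3, Nr1d1, Nr1d2 and Dbp minus that of Bmal1 and Clock. It was 0.442, 0.349, 0.376 and 0.380 in NIHHL replicates 1 to 4 and 0.346, 0.308 and 0.324 in Control replicates 1 to 3. Each NIHHL library was above each Control library, with NIHHL replicate 2 and Control replicate 1 almost level. The means were 0.387 ± 0.039 in NIHHL and 0.326 ± 0.019 in Control (SD, n = 4 and 3), a difference of 0.06 on the log2 scale. With Bmal1 alone in place of Bmal1 and Clock the difference was 0.07, but the groups overlapped. NIHHL replicate 3 then lay below Control replicates 2 and 3, so the separation depended on including Clock. Among single genes, 5.20% of all those tested had groups that did not overlap. The index is a score over the genes chosen, so no test was made of it. Its parts were mixed: relative to Bmal1, Per3, Dbp, Per2 and Nr1d2 were higher in NIHHL by 0.22, 0.13, 0.11 and 0.11, and Nr1d1 and Per1 lower, at -0.03 and -0.15.

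Single pairs spanned more than the index. Dbp minus Bmal1 was 1.379, 1.353, 1.180 and 1.203 in NIHHL and 1.005, 1.237 and 1.208 in Control, as differences of log2 CPM. The lowest value was that of Control replicate 1 and the highest that of NIHHL replicate 1, a span of 0.37. Per1 minus Bmal1 was 1.281, 1.220, 1.216 and 1.537 in NIHHL and 1.3015, 1.550 and 1.544 in Control, so that NIHHL replicate 4 stood with Control replicates 2 and 3. Over the 6 pairs the span between libraries ran from 0.19 for Nr1d1 minus Bmal1 to 0.43 for Per3 minus Bmal1.

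**Figure D3:**
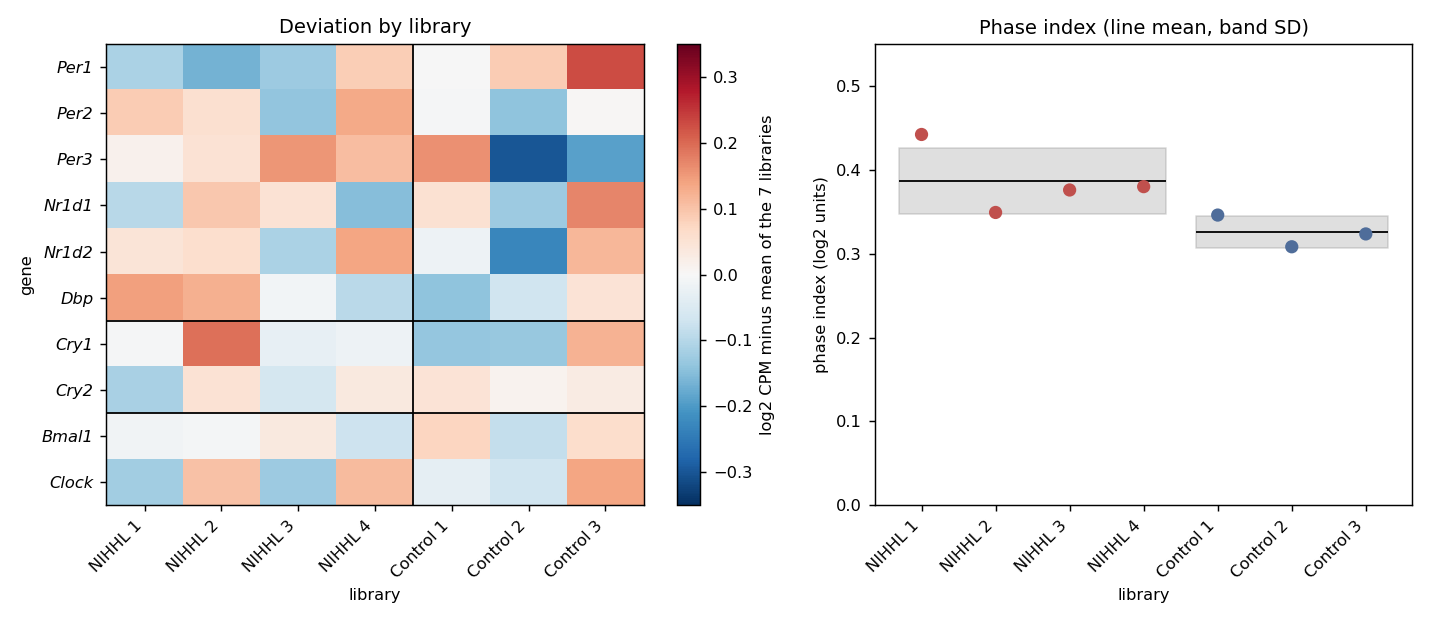
Left, log2 CPM of each clock gene minus its mean over the 7 libraries, with the driven genes on top, the cryptochromes in the middle and Bmal1 and Clock at the bottom. Right, the phase index in each library with the group mean and SD, at 0.387 in NIHHL and 0.326 in Control.

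Across the 7 libraries, the 9 other clock genes were each correlated with Bmal1 on the log2 CPM scale. Of the 6 driven genes, 4 had a positive and 2 a negative r, from -0.11 for Per2 to 0.83 for Nr1d1. Nr1d1, the repressor of Bmal1, followed it with r = 0.83 (exact permutation p = 0.0317, adjusted p = 0.286 over 9 relations) and rho = 0.79 (exact permutation p = 0.0480, adjusted p = 0.432). Without Control replicates 1 and 2, the 2 libraries farthest from the median of Bmal1, r was 0.86, and r of the deviations from the group means was 0.82. It was 0.61 once the trend with transcript length was taken out. For Dbp r was 0.04, for Per1 -0.03, for Per3 0.34 and for Nr1d2 0.20, and no relation passed after adjustment. These values rest on few libraries: without Control replicates 1 and 2, r was -0.74 for Per2, -0.55 for Per3, -0.40 for Nr1d2, 0.33 for Dbp and 0.17 for Per1. Without Control replicate 2 alone, r was -0.69 for Per2, -0.18 for Per3 and -0.48 for Nr1d2. The number of negative r among the 9 was 2, and it ran from 0 without NIHHL replicate 3 to 6 without Control replicate 2 or 3.

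Of all 45 pairs of clock genes, 33 had a positive r (median 0.18), and among the 6 driven genes 10 of 15 (median 0.16). The closest pair was Per2 and Nr1d2, both lowest in Control replicate 2 and NIHHL replicate 3 and highest in NIHHL replicate 4, with r = 0.89 (exact permutation p = 0.00972, adjusted p = 0.438 over 45 pairs) and rho = 0.86 (exact permutation p = 0.0238, adjusted p = 0.540). Without Control replicate 2 and NIHHL replicate 3 r was 0.52. Per1 and Per3 had the lowest r, -0.59 (exact permutation p = 0.183, adjusted p = 0.982), with rho = -0.50 (exact permutation p = 0.267, adjusted p = 0.922), and r was -0.46 without NIHHL replicate 2 and Control replicate 3. For deviations from the group means r was -0.32 for Per1 and Per3 and 0.88 for Per2 and Nr1d2.

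**Figure D4:**
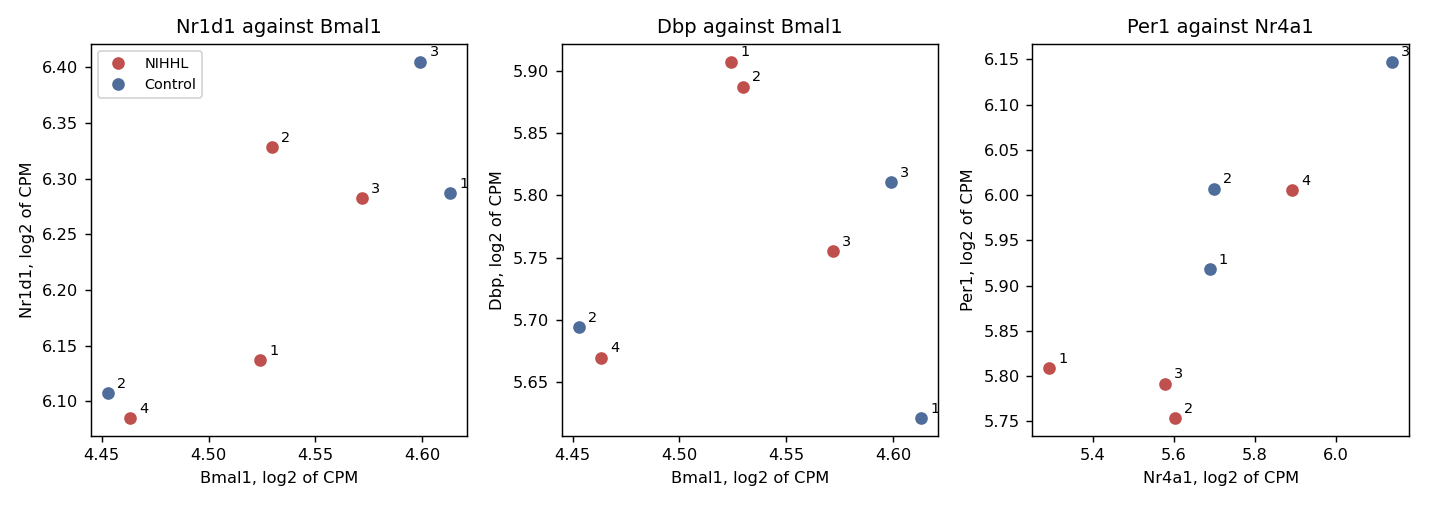
Each point is 1 library, numbered by replicate, on log2 axes of CPM: Nr1d1 against Bmal1 (r = 0.83), Dbp against Bmal1 (r = 0.04) and Per1 against the immediate early gene Nr4a1 (r = 0.85). Libraries of both groups are mixed along the first 2 plots, and in the third Control replicate 3 is highest on both axes.

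The accessory genes of the clock comprised 11 loop paralogs and transcription factors, 10 kinases, ubiquitin ligases and partner proteins, and 4 rhythmic outputs. All 25 passed the filter, 0 were called by edgeR or by DESeq2, and 2, Nfil3 and Cirbp, had an unadjusted p under 0.05 in edgeR's test (0.00% and 3.63% of all genes in edgeR). Of the 25, 12 were higher and 13 lower in NIHHL. Their median log2 fold change was -0.0082. The groups did not overlap for 1 of the 25, Nfil3, which was lower in NIHHL. Of all genes, 5.20% had groups that did not overlap, 2.37% with NIHHL lower. The proteins that modify PER and CRY were the flattest, with log2 fold changes from -0.15 to 0.03.

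Nfil3, a repressor that competes with DBP for D-boxes, stood at 6.72, 6.90, 6.77 and 7.43 CPM in NIHHL and at 9.57, 7.72 and 10.2 CPM in Control. All 4 NIHHL libraries lay below the Control libraries, the nearest being NIHHL replicate 4 and Control replicate 2. Its log2 fold change was -0.39 (SE 0.13, edgeR's adjusted p = 0.996). Tef and Hlf, activators of the same sites and kin of Dbp, averaged 388 ± 14.6 and 163 ± 3.68 CPM in NIHHL, and 382 ± 9.34 and 159 ± 34.9 CPM in Control. Their log2 fold changes were 0.02 (SE 0.06) and 0.04 (SE 0.12).

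Npas2, which can take the place of CLOCK in the forebrain, stood at 25.5, 25.9, 21.8 and 19.3 CPM in NIHHL and at 24.6, 21.5 and 29.2 CPM in Control. Ciart, a repressor of the CLOCK and BMAL1 pair, stood at 10.2, 9.54, 10.8 and 11.2 CPM in NIHHL and at 10.7, 11.9 and 11.7 CPM in Control. Both genes overlapped between the groups, with log2 fold changes of -0.12 (SE 0.13) for Npas2 and -0.13 (SE 0.11) for Ciart. Cirbp, a cold-inducible RNA-binding protein that follows body temperature, stood at 36.2, 33.3, 32.5 and 30.7 CPM in NIHHL and at 35.1, 51.1 and 35.6 CPM in Control. Its log2 fold change of -0.29 (SE 0.13, edgeR's adjusted p = 0.996) was -0.09 without Control replicate 2, the one high library. Rbm3, its cold-inducible relative, was also highest in that library, at 279 CPM.

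The accessory genes were also set against the phase index. Over the 7 libraries r with the index was -0.50 for Ciart, -0.58 for Nfil3, -0.15 for Tef, 0.29 for Hlf and -0.10 for Npas2, as a description. Usp2, a clock-driven deubiquitinase, had the highest r with the index of the 25 accessory genes, 0.78, and was picked for it. Of the 10219 other genes ranked, 1.51% had a higher r, a share that does not allow for this choice among 25. The 5 genes most like the index were Pid1 (r = 0.97), Mylip (r = 0.97), Pmepa1 (r = 0.95), Stat3 (r = 0.95) and Sft2d2 (r = 0.93). The 5 most opposed were Zfp358 (r = -0.97), Hpcal1 (r = -0.97), Wdr82 (r = -0.96), Zfp667 (r = -0.94) and Otud6b (r = -0.93). With 7 libraries that share 2 groups, such values describe these libraries, and the genes were picked for them.

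Genes of the immediate early class, induced within minutes of neuronal firing, were set beside Per1 because CREB drives both. Of 7 such genes, 1 was higher and 6 were lower in NIHHL. The median log2 fold change was -0.25. EdgeR called 0 of them, and 1, Junb, had an unadjusted p under 0.05. Of all genes 50.1% were lower, 0.00% were called and 3.63% had such a p. The mean log2(CPM + 1) of the 7 genes had its minimum of 4.67 in NIHHL replicate 1 and its maximum of 5.596 in Control replicate 3, where Per1 was highest too. Its r with Per1 was 0.68 (exact permutation p = 0.0869, adjusted p = 0.348 over 4 relations) with rho = 0.46 (exact permutation p = 0.302, adjusted p = 0.713). Without these 2 libraries r was 0.13, so the relation rests on them.

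Nr4a1, an orphan nuclear receptor, came closest to Per1 among the 7 genes by r and rho over the libraries. It stood at 39.2, 48.6, 47.7 and 59.3 CPM in NIHHL and at 51.6, 52.0 and 70.4 CPM in Control. NIHHL replicate 4 was the only NIHHL library within the Control range, as for Per1. Its r with Per1 was 0.85 (exact permutation p = 0.0127, adjusted p = 0.0715 over 7 relations), rho was 0.82 (exact permutation p = 0.0341, adjusted p = 0.232), and r was 0.81 without NIHHL replicate 1 and Control replicate 3. The deviations from the group means gave r = 0.80 for Nr4a1, below 0.84 for Egr1 and 0.82 for Arc. The highest of the rest was 0.62, for Fos. Over the other 6 genes r with Per1 was 0.10 for Npas4, 0.30 for Dusp1, 0.67 for Junb, 0.74 for Fos, 0.80 for Arc and 0.81 for Egr1. None passed after adjustment. Without the 2 farthest libraries of each gene, r was 0.51 for Arc, 0.49 for Fos, 0.22 for Egr1, 0.20 for Dusp1, 0.05 for Junb and -0.23 for Npas4. The score's r with Per2 was -0.08 (exact permutation p = 0.861, adjusted p = 0.861; rho = 0.18, exact permutation p = 0.713, adjusted p = 0.713), and 0.31 without NIHHL replicate 1 and Control replicate 3, against 0.13 for Per1.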

How the data were processed

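Hippocampal polyA RNA was sequenced in 4 NIHHL and 3 Control libraries. The authors deposited 1 table of expected counts per gene, not scaled to library size, in which 90.7% of values were whole numbers. Per the submitters' processing notes Bowtie2 2.2.8, HISAT2, StringTie 1.3.1 and DESeq2 were used, with no roles named; the sources used here name no genome build, annotation, counter or strand. A NEBNext Ultra kit made the libraries, per the labels' protocols.

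The expected counts were rounded to whole numbers, filtered with edgeR's filterByExpr (minimum count 10, which kept 99.96% of counts), scaled by TMM factors and tested with edgeR (quasi-likelihood, robust moderation) on group, with Benjamini-Hochberg adjustment over all genes and a threshold of 0.05. Log2 CPM carries a prior count of 2. The edgeR test was also run on simulated counts with known changes, and the outcome is not given here. Software was R 4.3.3, edgeR 4.0.16, limma 3.58.1 and DESeq2 1.42.0. Exon lengths, overlaps and coordinates come from GENCODE M21 (GRCm38), which may differ from the authors' annotation. Log2 fold changes are NIHHL minus Control; their SE is the fold change over the root of the F statistic. Correlations were tested over all pairings of the 7 libraries.

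The clock genes, the accessory, marker, immediate early and glucocorticoid lists and the naming rule were chosen with earlier results of these data known. The rule named all 10 clock genes, accessory genes with an unadjusted p under 0.05, Ciart, Tef, Hlf, Nfil3 and Npas2, Thra, the immediate early and glucocorticoid genes, and the 5 genes most and least correlated with the phase index among other genes with a mean log2 CPM of at least 3. Sphk2, Rbm3 and Usp2, the choice of Nr4a1, and the correlations of all pairs and with the response genes were added after values were seen. Alternatives were other size factors, no filter, DESeq2, limma-voom, each library left out, a replicate block, omission of the 2 libraries at the ends of the length trend, a length offset and a choroid plexus covariate.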

Additional observations from a re-analysis of the deposited data

Results flagged for a closer look

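Among the 40 values checked in the 4 NIHHL libraries, 1 stood apart. Cry1 was at 22.5 CPM in NIHHL replicate 2, against 19.3 to 19.7 CPM in the other 3 NIHHL libraries and 17.9 to 21.5 CPM in the Control libraries. The gap to the nearest library was 0.898 of the group's range, above Dixon's 95% critical value for 4 samples. Chance flags about 5% of such groups.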

How the results depend on the processing

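No clock gene and no accessory gene was called under any of the 15 alternatives, where the adjusted p of the 10 clock genes ran from 0.641 to 1. Over all genes DESeq2 called 4 (mt-Atp8, Hsd3b1, Akr1cl and Dnah6) and edgeR 1 (Gcat) without both Control replicate 2 and NIHHL replicate 4, against 0 with all 7 libraries; the cause was not tested. The sign of 7 clock genes, Per1, Per2, Per3, Cry1, Cry2, Bmal1 and Dbp, was kept in all 15. Leaving out 1 library gave log2 fold changes of -0.24 to -0.12 for Per1, 0.09 to 0.33 for Per3, 0.04 to 0.14 for Per2, 0.03 to 0.17 for Cry1, 0.06 to 0.15 for Dbp, -0.07 to -0.02 for Cry2, -0.08 to -0.0047 for Bmal1, -0.060 to 0.045 for Clock, -0.13 to 0.013 for Nr1d1 and -0.013 to 0.15 for Nr1d2. Clock was above 0 without Control replicate 3 (0.045), NIHHL replicate 1 (0.017) or NIHHL replicate 3 (0.018). Clock was at 0.0097 with the choroid plexus covariate, and Nr1d2 at -0.050 without both Control replicate 2 and NIHHL replicate 4. The phase index difference stayed between 0.04 and 0.09 in all 14 alternatives run on it, the length offset among them being added after values were seen. The number of negative correlations with Bmal1, 2 of 9, was 4 with that offset and 0 to 6 when 1 library was left out. Same-numbered libraries did not deviate together (r = -0.45, -0.45 and 0.06 for numbers 1, 2 and 3). NIHHL replicate 1 correlated best with Control replicate 2 (0.48), and each was the richest of its group in choroid plexus markers (8383 and 6922 CPM). The part of choroid plexus in these r was not tested, so they cannot settle whether the numbers pair libraries. With the replicate block edgeR called 0 genes, 0 clock genes and 0 accessory genes, and the phase index difference within numbers was 0.06. With the choroid plexus covariate, 2 clock genes, Per1 and Per3, had an unadjusted p under 0.05, against 1 in the fit without it. Of all 14417 genes, 825 had such a p with the covariate and 523 without it. Each clock gene had at least 266 counts per library, and the part of depth in the width of the intervals was not tested.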

Other observations

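Glucocorticoids set peripheral clocks and induce Per1 and Per2, so 7 glucocorticoid-induced genes were read in the same libraries. Of these, 3 were higher and 4 lower in NIHHL. Their median log2 fold change was -0.036. EdgeR called 0 of them, and 0 had an unadjusted p under 0.05, beside 0.00% and 3.63% of all genes. Fkbp5, a chaperone of the glucocorticoid receptor, averaged 70.7 ± 1.61 CPM in NIHHL and 72.4 ± 9.64 CPM in Control. Tsc22d3 averaged 97.9 ± 8.83 CPM in NIHHL and 95.6 ± 13.5 CPM in Control. Sgk1, a kinase also high in oligodendrocytes, stood at 159, 96.6, 159 and 179 CPM in NIHHL replicates 1 to 4 and 104, 165 and 118 CPM in Control replicates 1 to 3. It was higher in NIHHL replicates 1, 3 and 4 and Control replicate 2, the libraries richest in choroid plexus markers. The part of choroid plexus in Sgk1 and in the score below was not tested. The mean log2(CPM + 1) of the 7 genes had r = 0.14 with Per1 (exact permutation p = 0.790, adjusted p = 0.861 over 4 relations; rho = 0.18, exact permutation p = 0.713, adjusted p = 0.713) and r = -0.34 with Per2 (exact permutation p = 0.474, adjusted p = 0.861; rho = -0.21, exact permutation p = 0.662, adjusted p = 0.713). Without Control replicates 1 and 2 these were -0.12 and 0.08.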
